A study of Mus musculus with 9 samples.

Results

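Interferons are secreted proteins that warn cells of infection or damage, and the genes they switch on are called interferon-stimulated genes. The transcript levels of 38 such genes were followed in mouse brain after cerebral venous sinus thrombosis (CVST). They were chosen by symbol out of 20731 gene symbols in the deposited count table, with earlier results of these data known. All 38 were present, and all 38 passed the expression filter that left 14746 genes to test. By role they comprised 4 transcription factors, 3 sensors of foreign nucleic acid, 9 antiviral effectors, 7 enzymes or modifiers of the ISG15, ubiquitin and PARP systems, 6 interferon-inducible GTPases, 2 immunoproteasome subunits and 7 other induced genes. Brain RNA came from 9 male C57BL/6J mice aged 8 to 10 weeks, collected 2 days after modelling, 3 mice to a group. Every mouse, the CVST controls included, had a thrombus raised in the superior sagittal sinus with ferric chloride. The deep cervical lymph nodes, which drain the meningeal lymphatic vessels, were left untied in the CVST group and tied off in both other groups, CVST+Ligation and 4-PBA. The latter additionally received 4-phenylbutyric acid, an inhibitor of endoplasmic reticulum stress, at 100 mg/kg. The methods place this dose 30 min before modelling, while the series description places it after ligation. Mice without thrombosis were not analysed here, so the values below compare thrombosed brains with each other and do not show what thrombosis itself did.

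The pathway works as a relay. Type I interferons bind the receptor chains IFNAR1 and IFNAR2, the kinases JAK1 and TYK2 phosphorylate STAT proteins, STAT2 among them, and these join IRF9 to form a complex that binds the interferon-stimulated response element (ISRE) in target promoters. Interferon gamma signals through IFNGR1 and IFNGR2 to factors that bind the gamma-activated site (GAS), and it is the stronger inducer of the guanylate-binding proteins, the immunity-related GTPases and the immunoproteasome. In the brain, microglia, astrocytes, endothelium and infiltrating leukocytes can all respond.

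Promoters of 6 of the genes are printed to show these elements beside the genes that the results below turn on. RefSeq promoter entries (assembly GRCm38.p6, 250 bases before to 50 bases after the start of the gene) were matched for 30 of the 38 genes by symbol. Those not matched were Dhx58, Ifi27, Iigp1, Parp14, Parp9, Rtp4, Usp18 and Zbp1. Both strands were searched for GAAA repeated after any 2 bases, the core of an ISRE, and TTCNNNGAA, the core of a GAS, and overlapping matches were kept. Over all 27025 symbols with an entry, 3.99% held the ISRE letters and 9.55% the GAS letters. Since fewer than 80% of the list had an entry (78.9%), a comparison of the list with these shares is void, and the matches describe single promoters only. Capitals mark the matched letters. The first lines are the ubiquitin-like modifier Isg15 (chr4:156200769-156201068, minus strand), the antiviral RNA-binding protein gene Ifit3 (chr19:34583279-34583578, plus strand), the guanylate-binding protein gene Gbp3 (chr3:142559794-142560093, plus strand) and the immunity-related GTPase gene Irgm1 (chr11:48871371-48871670, minus strand), each with ISRE letters. The last lines are Ifi35 (chr11:101448162-101448461, plus strand), with GAS letters, and the immunoproteasome gene Psmb9 (chr17:34187281-34187580, minus strand), with neither.
Isg15: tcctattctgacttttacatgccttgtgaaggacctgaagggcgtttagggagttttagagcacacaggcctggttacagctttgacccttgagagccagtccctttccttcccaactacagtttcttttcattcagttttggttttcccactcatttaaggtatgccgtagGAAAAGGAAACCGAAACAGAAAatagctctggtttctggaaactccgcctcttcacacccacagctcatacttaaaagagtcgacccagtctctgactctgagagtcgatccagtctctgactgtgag
Ifit3: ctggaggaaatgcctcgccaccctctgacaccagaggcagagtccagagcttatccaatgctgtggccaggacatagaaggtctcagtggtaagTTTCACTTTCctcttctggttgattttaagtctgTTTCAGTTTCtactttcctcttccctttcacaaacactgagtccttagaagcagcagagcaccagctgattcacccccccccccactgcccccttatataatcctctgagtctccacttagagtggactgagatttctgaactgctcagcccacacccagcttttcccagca
Gbp3: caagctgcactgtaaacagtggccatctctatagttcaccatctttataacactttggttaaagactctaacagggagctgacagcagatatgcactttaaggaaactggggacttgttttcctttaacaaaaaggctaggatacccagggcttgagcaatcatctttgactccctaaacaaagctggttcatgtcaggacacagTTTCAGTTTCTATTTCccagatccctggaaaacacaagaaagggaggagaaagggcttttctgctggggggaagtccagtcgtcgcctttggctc
Irgm1: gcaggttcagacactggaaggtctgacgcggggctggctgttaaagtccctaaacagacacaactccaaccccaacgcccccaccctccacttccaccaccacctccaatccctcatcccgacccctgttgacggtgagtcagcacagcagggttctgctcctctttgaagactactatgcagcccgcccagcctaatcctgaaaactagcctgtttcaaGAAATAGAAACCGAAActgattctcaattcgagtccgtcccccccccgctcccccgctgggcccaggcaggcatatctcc
Ifi35: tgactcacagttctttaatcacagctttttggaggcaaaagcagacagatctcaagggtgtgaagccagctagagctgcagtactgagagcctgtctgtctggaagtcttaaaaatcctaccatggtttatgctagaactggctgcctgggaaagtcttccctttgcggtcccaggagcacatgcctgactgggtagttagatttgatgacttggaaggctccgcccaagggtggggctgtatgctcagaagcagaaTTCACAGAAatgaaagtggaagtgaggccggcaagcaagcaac
Psmb9: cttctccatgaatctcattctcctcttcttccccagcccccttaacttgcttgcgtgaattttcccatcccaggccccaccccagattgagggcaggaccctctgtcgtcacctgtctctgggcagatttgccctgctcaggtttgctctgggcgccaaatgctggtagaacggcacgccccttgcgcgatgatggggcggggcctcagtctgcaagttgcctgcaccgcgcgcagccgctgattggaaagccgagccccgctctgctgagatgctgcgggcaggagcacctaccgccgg
The Isg15 window held 3 overlapping ISRE matches, whose first bases were at positions -78, -72 and -66, counting the base before the start as -1. Ifit3 held matches at -156 and -122, Gbp3 overlapping ones at -45 and -39, and Irgm1 overlapping ones at -30 and -24. RefSeq holds a second promoter entry for Gbp3 (chr3:142560106-142560405, plus strand), which held neither set of letters. The GAS match of Ifi35 began at base 8 of the transcript, counting the start as 1. A match of letters is not evidence of binding, and its absence from Psmb9 concerns this window alone.

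Several of the genes lie side by side in the genome (GRCm38, GENCODE annotation). Ifit1, Ifit2 and Ifit3 lie together on chromosome 19, with Ifit3 at chr19:34583531-34588731, plus strand, and Gbp2, Gbp3 and Gbp7 on chromosome 3, with Gbp3 at chr3:142560026-142573209, plus strand. Psmb8 (chr17:34197721-34201454, plus strand) and Psmb9 (chr17:34181987-34187764, minus strand) share the major histocompatibility region, and Dtx3l, Parp9 and Parp14 sit together on chromosome 16. Psmb9 overlaps Tap1, Parp9 overlaps Dtx3l, Irf7 overlaps Phrf1, Dhx58 overlaps Dhx58os and Rtp4 overlaps Masp1 on the other strand, and Igtp overlaps Irgm2 and Irf9 overlaps Rnf31 on the same strand, so their counts can be shared. Reads of near-identical copies, such as Ifit3 and Ifit3b or members of the Gbp and Trim30 families, may also have been split, since the handling of reads with several matches is not stated.

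The libraries held 18100739 to 25091498 counted reads (median 23358349), so that 3 counts, taken as the floor of detection, corresponded to 0.114 to 0.163 CPM (counts relative to the library total, scaled with edgeR's TMM factors). This floor covers counting error only. The tissue is labelled brain without a region, although the series description speaks of cortex. Marker genes of neurons summed to 4119 to 6020 CPM in every library, but markers of brain regions differed between groups and single mice. Cortical markers summed to 2318 to 2538 CPM in the CVST group, 700.1 to 1926 in the CVST+Ligation group and 804.8 to 1087 in the 4-PBA group. Midbrain dopamine markers summed to 18.02 to 19.5, 169 to 207 and 226 to 230.1 CPM, and hypothalamic markers to 2.25 to 3.47, 2.23 to 21.1 and 278 to 474 CPM, in the same order of groups. CVST+Ligation replicate 2 stood apart with cerebellar markers at 1566 CPM, against 34.3 to 92.1 CPM in the other libraries. Differences between groups therefore cannot be told apart from differences in the piece of tissue taken, and fewer cells of a type cannot be told apart from less RNA per cell. Counts below are also given without CVST+Ligation replicate 2 where they rest on it.

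Per transcript length, the list spanned a wide range of levels. The deposited FPKM values (read counts scaled by transcript length and library size) allow genes to be compared with each other, and are given as the mean over 9 mice with the lowest and highest mouse. Ifitm3, an inhibitor of viral fusion with membranes of the host cell, was the most abundant antiviral effector and the most abundant gene of the list, at 114 FPKM (51.9 to 187). Ifi27, which encodes a small hydrophobic protein strongly induced by type I interferon, followed at 66.2 FPKM (46.9 to 88.2). Irgm1, which controls the other immunity-related GTPases, was the most abundant GTPase, at 15.4 FPKM (9.07 to 26.4). Irf9, the DNA-binding part of the complex downstream of type I interferon, led the transcription factors at 10.4 FPKM (7.9 to 13.8), and Isg15 its own group at 9.31 FPKM (4.23 to 19.9). Psmb8 was above Psmb9, at 8.6 FPKM (4.94 to 15.2) against 3.19 FPKM (1.29 to 5.57). Dhx58, which tunes the RNA sensors RIG-I and MDA5, led the sensors at only 1.33 FPKM (0.671 to 2.51).

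At the low end were Gbp7 with 0.383 FPKM (0.135 to 0.625), Rsad2, the antiviral radical enzyme viperin, with 0.503 FPKM (0.182 to 1.12), and Ifi44 with 0.585 FPKM (0.252 to 1.17). The lowest count of any member in any library was 4 reads, for Rsad2, and no gene of the list was at or under 3 counts in any library. Low genes carry more counting error, and for Rsad2, Zbp1 and Gbp7 the standard errors below are among the largest.

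The ligands themselves were not seen. All 21 interferon genes searched were in the table, 20 of them had 0 counts in every library, and Ifnk had 1 count, in CVST+Ligation replicate 3. A level below the floor of 3 counts cannot be told from absence at this depth. The receiving end of the pathway was present in all groups. The type I receptor gene Ifnar1 had a mean of 23.7 FPKM and the interferon gamma receptor gene Ifngr2 53.0 FPKM. Jak1, the kinase that both receptors use, had a mean of 90.2 FPKM.

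The plot of the list in all mice shows single mice that were high in most of the genes at once. CVST replicate 2 was above the mean of the 9 mice for 36 of 38 genes, CVST+Ligation replicate 2 for 27, 4-PBA replicate 2 for 28 and 4-PBA replicate 3 for 36, and the other mice for 2 to 14.

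**Figure D1:**
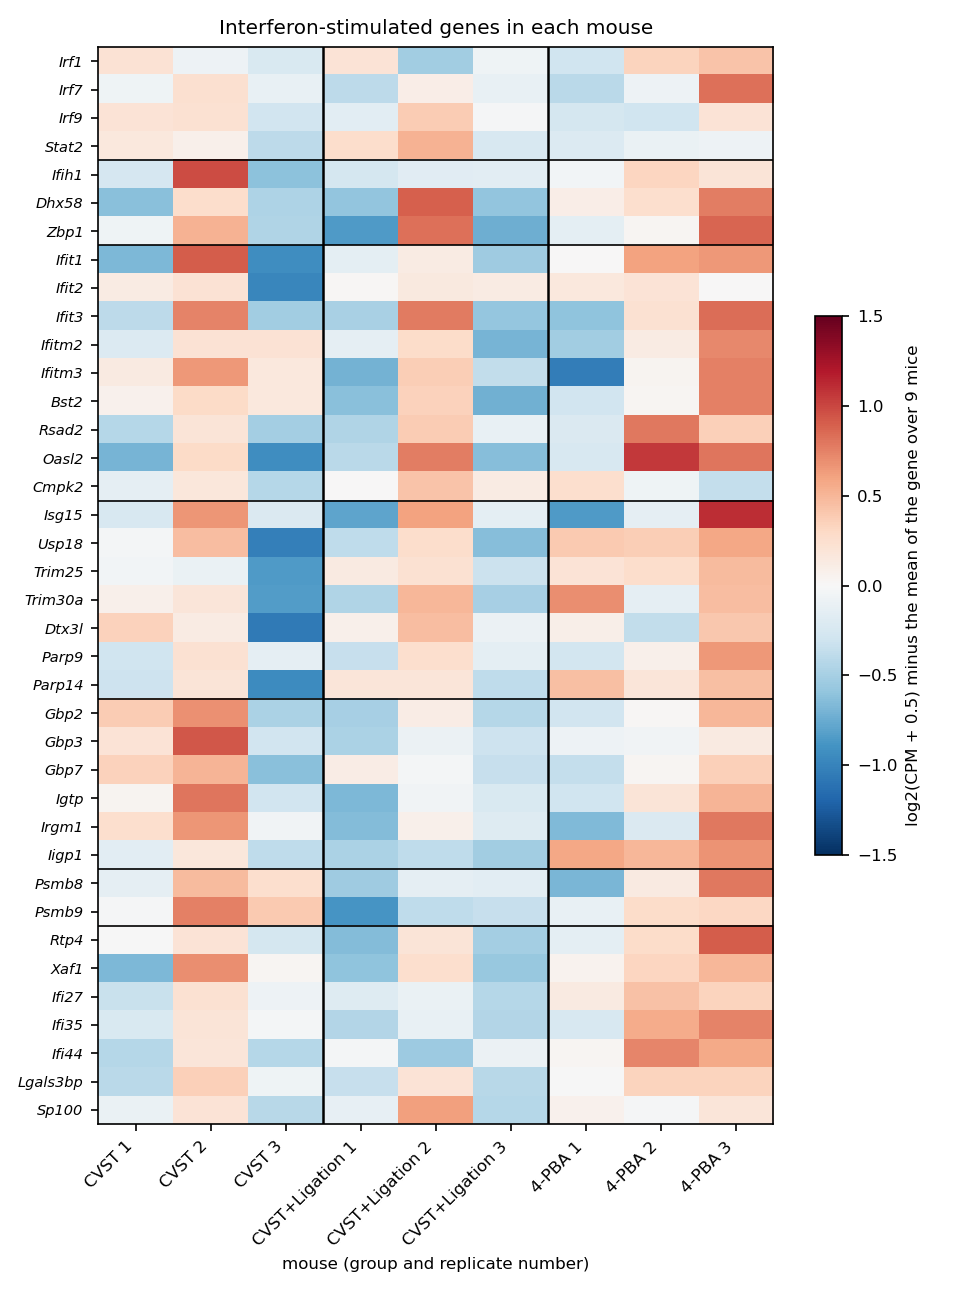
Levels of the 38 interferon-stimulated genes (rows, ordered by role, black lines between roles) in 9 mice (columns, by group and replicate number), as log2(CPM + 0.5) minus the mean of the gene over the 9 mice, red above and blue below. CVST replicate 2, CVST+Ligation replicate 2 and 4-PBA replicates 2 and 3 are mostly red, and the other columns are mostly blue.

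Ifit3 is an example. Its levels were 11.6, 26 and 10.5 CPM in CVST replicates 1 to 3, 10.9, 26.8 and 10.1 CPM in the CVST+Ligation mice and 9.97, 18.2 and 27.8 CPM in the 4-PBA mice. A single mouse in each group thus stood near the same high level, and all groups overlapped. Isg15 lay at 3.31, 6.65 and 3.36 CPM in the CVST mice, 2.11, 6.34 and 3.56 CPM after ligation and 2.0, 3.62 and 9.18 CPM with 4-PBA. The highest mice were again CVST replicate 2, CVST+Ligation replicate 2 and 4-PBA replicate 3. Irgm1 had 21.3, 28.4 and 17.1 CPM in the CVST mice, 11.1, 18.7 and 15.5 CPM in the CVST+Ligation mice and 11, 15.2 and 30.9 CPM in the 4-PBA mice, with the same 3 mice at the top of their groups. Zbp1, a sensor of Z-form nucleic acid that can start cell death, ranged from 0.207 to 1.75 CPM among the CVST+Ligation mice alone.

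Other members also spread widely within groups. Irf7, the factor that amplifies the type I response, had 3.44, 4.35 and 3.31 CPM in the CVST mice, 2.65, 3.92 and 3.3 CPM after ligation and 2.6, 3.41 and 6.82 CPM with 4-PBA. Bst2, or tetherin, which holds budding viruses at the cell surface, lay at 7.99, 9.45 and 8.57 CPM, then 4.75, 9.84 and 4.44 CPM and then 6.18, 7.78 and 13.3 CPM. The Bst2 values of the CVST mice were close together, while CVST+Ligation replicate 2 and 4-PBA replicate 3 were above the others of their groups. Rsad2 had 0.255, 0.665 and 0.217 CPM, 0.248, 0.825 and 0.44 CPM and 0.379, 1.26 and 0.80 CPM in the same order, with the highest mouse of every group being replicate 2. Dhx58 lay at 1.4, 3.02 and 1.63 CPM, 1.45, 4.95 and 1.45 CPM and 2.65, 2.99 and 4.5 CPM. Xaf1, a proapoptotic interferon target, ranged from 5.18 to 14.2 CPM among the CVST mice, the low and high ends of all 9. Ifit2 was low in CVST replicate 3 alone, at 3.47 CPM against 7.39 to 8.6 CPM in the other mice.

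Counted over the list, CVST replicate 2 was the highest mouse of its group for 33 of 38 genes (86.8%), where it was highest for 28.2% of all genes tested. CVST+Ligation replicate 2 was highest for 33 of 38 (86.8%, all genes 41.3%), and 4-PBA replicate 3 for 30 of 38 (78.9%, all genes 33.6%). For 23 of the 38 genes (60.5%) all of these mice were highest together, against 5.28% of all genes tested. The exceptions included Irf1, a transcription factor induced most by interferon gamma, which was highest in replicate 1 of both the CVST and CVST+Ligation groups. Ifih1, the RNA sensor MDA5, was highest in CVST replicate 2 but in CVST+Ligation replicate 3 and 4-PBA replicate 2. In 80 other interferon-stimulated genes that are not on the list, the same mice were highest for 61.2%, 67.5% and 50% of genes. This pattern was chosen after the values were seen and is given as a description, without a test.

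**Figure D2:**
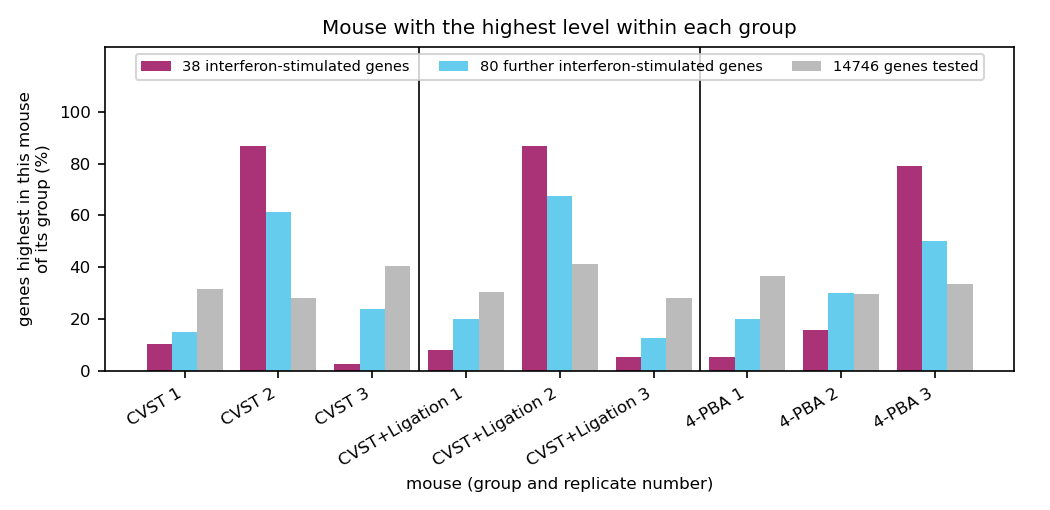
Share of genes (%) for which each mouse had the highest level in its own group of 3, for the 38 listed genes, 80 further interferon-stimulated genes and all 14746 genes tested. The tall bars are CVST replicate 2 (86.8%), CVST+Ligation replicate 2 (86.8%) and 4-PBA replicate 3 (78.9%).

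The median deviation of the 38 genes from their own means gave each mouse 1 value on the log2 scale. It was -0.08, 0.25 and -0.39 in CVST replicates 1 to 3, -0.40, 0.22 and -0.35 in the CVST+Ligation mice, and -0.14, 0.19 and 0.51 in the 4-PBA mice. Over all genes tested the same median stayed between -0.01 and 0.01 in each mouse. The widest fold range between mice of 1 group had a median of 2.51 over the list, against 1.73 over all genes tested, and the fold range of the 3 group means had a median of 1.46, against 1.26. The range within a group was the wider for 36 of 38 genes (94.7%), a share close to that of all genes tested (91.5%). The exceptions were Iigp1 and Psmb9, which also had the smallest p-values of the comparisons below.

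Markers of some other cells were highest in these mice too and those of others were not, and their part in the pattern was not tested. Summed markers of blood leukocytes were 30.04, 42.7 and 19.4 CPM in the CVST mice, 7.81, 16.9 and 12.4 CPM after ligation and 9.81, 18.5 and 22.2 CPM with 4-PBA, so the same mice were highest. Of the 22 leukocyte markers 8 passed the expression filter, the T cell genes Trbc2 and Cd4 made up most of the CVST sum, the neutrophil gene Ly6g was at 0 in 8 of 9 libraries, and Cd3d and Cd3g had at most 0.217 CPM. Summed markers of border-associated macrophages (7 genes) were 7.73, 22.1 and 6.29 CPM, then 11.03, 20.6 and 4.48 CPM, then 9.70, 18.8 and 14.4 CPM, highest in the same mouse in the first 2 groups but not in the 4-PBA group. The sum of 9 astrocyte markers was 2047, 3191 and 2191 CPM, then 2729, 3819 and 2426 CPM, then 2572, 2435 and 3676 CPM, again with the same mice on top. The sum of 15 microglial markers was 1265, 1439 and 1331 CPM, then 1011, 993.6 and 938.7 CPM, then 921.4, 901.4 and 1217 CPM. It was highest in the same mouse in the CVST and 4-PBA groups but not in the CVST+Ligation group. The sum of 12 endothelial markers was 541.5, 683.1 and 480.7 CPM, then 602.7, 741.7 and 511.6 CPM, then 706.6, 612.1 and 603.1 CPM, where 4-PBA replicate 3 was the lowest of its group.

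**Figure D3:**
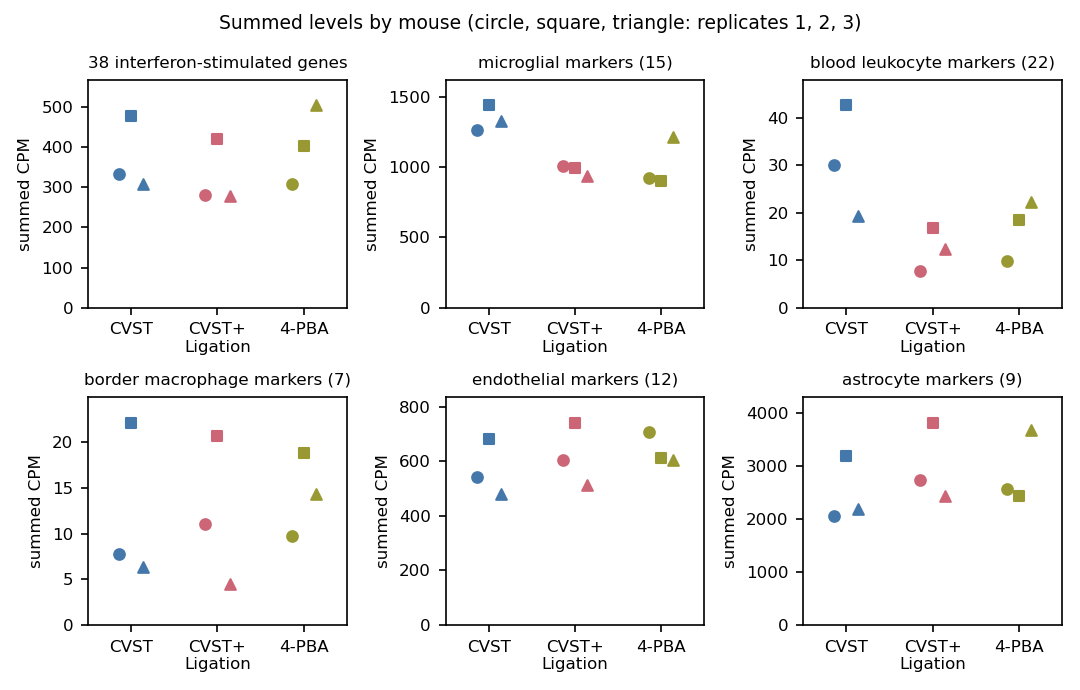
Summed level (CPM) of the 38 interferon-stimulated genes and of 5 marker lists in each mouse (circle, square and triangle are replicates 1, 2 and 3). The interferon-stimulated genes summed to 477.8, 421.4 and 504.2 CPM in the highest mouse of each group, and microglial markers were lower in every CVST+Ligation mouse than in every CVST mouse.

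The first comparison asks what lymph node ligation added to CVST. The summed level of the list was 373 ± 91.5 CPM in the CVST group and 327 ± 81.7 CPM in the CVST+Ligation group (SD, n = 3). By gene, 12 of 38 were above and 26 below the CVST level, with a median log2 fold change of -0.17 (all genes 0.0021). All 6 interferon-inducible GTPases and both immunoproteasome genes were on the lower side, with medians of -0.55 and -0.85, whereas the transcription factors (median -0.04), antiviral effectors (-0.01) and the ISG15, ubiquitin and PARP group (0.05) lay near 0. The 3 sensors had a median of -0.19 and the other induced genes -0.19. At an unadjusted p below 0.05 (edgeR's quasi-likelihood test), 2 of 38 were lower (all genes 4.18%) and 0 higher (all genes 5.47%). After Benjamini-Hochberg adjustment of this edgeR test no gene of the list passed, the smallest adjusted p being 0.38 (all genes passing 0.0203%). DESeq2, run as an alternative, also passed none of the list, while it passed 264 of 14746 genes where edgeR passed 3.

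Psmb9, an inducible subunit that replaces a constitutive one in the proteasome and alters the peptides shown to T cells, differed most. It had 2.0, 3.77 and 2.82 CPM in the CVST mice and 0.868, 1.44 and 1.5 CPM in the CVST+Ligation mice. Every CVST+Ligation mouse was below every CVST mouse, which held for no other gene of the list (all genes 7.21%) and with the opposite sign for none (all genes 6.61%). The log2 fold change was -1.17 (SE 0.37). Its neighbour Psmb8 gave -0.52 with overlapping groups, at 6.12, 9.58 and 8.14 CPM against 4.5, 6.13 and 5.98 CPM. Tap1, the peptide transporter gene whose locus overlaps Psmb9, had a log2 fold change of -0.22.

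Among the GTPases, which attack the vacuoles of intracellular microbes, Gbp3 had 9.05, 15.3 and 6.29 CPM in the CVST group and 5.46, 7.32 and 6.2 CPM after ligation. CVST replicate 2 was far above the others, and CVST replicate 3 lay inside the ligated range. Its log2 fold change was -0.70 (SE 0.31). Igtp lay at 9.82, 17 and 7.7 against 5.79, 9.17 and 8.04 CPM, a log2 fold change of -0.59 (SE 0.34). For Gbp2 the values were 13.8, 17.2 and 7.49 against 7.32, 11.5 and 7.69 CPM and -0.55 on the log2 scale. Irgm1 gave -0.56 (SE 0.37). In Gbp3, Igtp, Gbp2 and Irgm1 CVST replicate 2 was the highest of the 6 mice, and the groups overlapped. Gbp3 alone of these passed an unadjusted p of 0.05, and it lost this call in 9 of 15 alternatives, namely total counts, only the 2 groups compared, a replicate block, limma on log2(FPKM + 1) or log2(FPKM + 0.1), and each fit without CVST replicate 1, CVST replicate 2, CVST+Ligation replicate 1 or CVST+Ligation replicate 3.

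The members with the smallest p on the higher side did not pass the line either. Cmpk2, a mitochondrial nucleotide kinase beside Rsad2 on chromosome 12, had 11.5, 14.3 and 9.22 CPM in the CVST mice and 12.7, 17.1 and 13.8 CPM after ligation, a log2 fold change of 0.31 (SE 0.24). Stat2, a partner of IRF9, had 20.8 ± 4.13 CPM in the CVST group and 24.7 ± 6.43 CPM after ligation (SD, n = 3), a difference of 0.24 on the log2 scale. The ubiquitin ligase gene Trim25 gave 0.36, Parp14, an ADP-ribosyltransferase, 0.34, and Oasl2, a relative of the oligoadenylate synthetases, 0.42. For Oasl2 the sign rested on CVST+Ligation replicate 2, which had 11.7 CPM against 4.92 and 4.09 CPM in the other ligated mice, and the log2 fold change was -0.20 without it.

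Single mice decided these counts. Without CVST replicate 2 no gene of the list passed p below 0.05 and the median log2 fold change turned to 0.14, with 22 of 38 genes above 0 (all genes with p below 0.05 were 3.48% lower and 5.05% higher in that fit). Without CVST replicate 3 there were 4 lower genes (Gbp2, Gbp3, Igtp and Psmb9; all genes 5.09% lower and 5.15% higher in that fit), and without CVST+Ligation replicate 2 also 4 (Zbp1, Bst2, Gbp3 and Psmb9; all genes 3.42% lower and 4.65% higher). The 6 GTPases and both immunoproteasome genes lay below 0 in each fit that left out 1 of the 6 mice, but the other roles moved with single mice. Without CVST replicate 2 all 3 sensors, 6 of 9 antiviral effectors and all 7 genes of the ISG15, ubiquitin and PARP group lay above 0. Without CVST+Ligation replicate 2 these counts were 0 of 3, 2 of 9 and 3 of 7, and without CVST replicate 3 they were 1 of 3, 3 of 9 and 2 of 7. All 15 microglial markers lay below their CVST level after ligation, 9 of them with p below 0.05. The summed blood leukocyte markers were also lower, through Trbc2 and Cd4, but 4 of the 8 leukocyte markers tested lay above 0 (median 0.21). All 10 cortical and all 8 striatal markers lay lower as well, 5 and 8 of them with p below 0.05. So did 6 of 8 choroid plexus markers (median -0.74, 0 lower and 1 higher with p below 0.05) and 5 of 6 ependymal markers (-0.59, 0 with p below 0.05). Other lists went the opposite way. All 8 midbrain dopamine and all 6 cerebellar markers tested lay higher, each with p below 0.05, as did 8 of 9 thalamic markers, 5 with p below 0.05. All 9 meningeal fibroblast, all 5 erythroid, 8 of 9 oligodendrocyte and 7 of 9 astrocyte markers also lay higher (medians 0.69, 0.62, 0.48 and 0.33). The part of all these lists in the lower GTPase and immunoproteasome values was not tested.

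**Figure D4:**
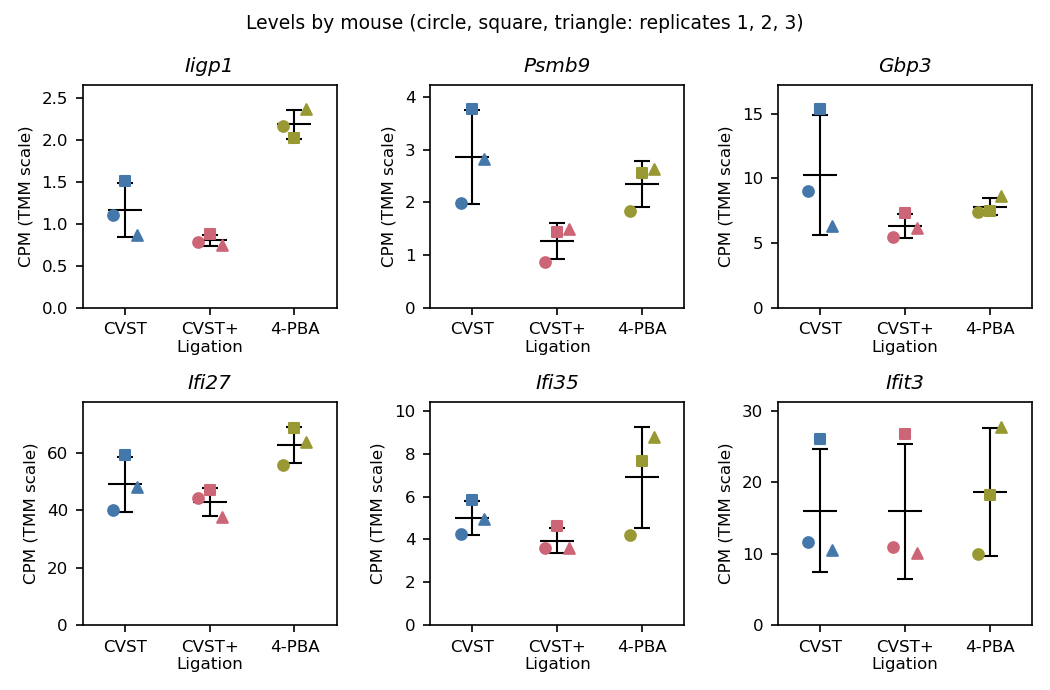
CPM of 6 genes in each mouse (circle, square and triangle are replicates 1, 2 and 3), with the group mean and SD over 3 mice (horizontal bars). Psmb9 is lower in every CVST+Ligation mouse than in every CVST mouse, Iigp1 is higher in every 4-PBA mouse than in all others, and Ifit3 has 1 high mouse in each group.

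The second comparison asks what 4-PBA changed in ligated mice. Most of the list lay higher with 4-PBA, 33 of 38 genes, with a median log2 fold change of 0.39 (all genes -0.02) and a summed level of 405 ± 98.4 against 327 ± 81.7 CPM (SD, n = 3). All 6 GTPases (median 0.36), both immunoproteasome genes (0.70) and all 3 sensors (0.43) were on the higher side, as were 8 of 9 antiviral effectors (0.35). At p below 0.05 with edgeR, 4 genes of the list were higher (Iigp1, Psmb9, Ifi27 and Ifi35, all genes 1.81%) and 0 lower (all genes 1.42%), which is 10.5% of the list in either direction against 3.23% of all genes tested. Since the list was chosen with earlier results of these data known, this difference is a description and not a test. With Benjamini-Hochberg adjustment over all genes the edgeR test passed none, here or elsewhere (0%), and the smallest adjusted p of the list was 0.9998. DESeq2 also passed no gene of the list, and 22 of all 14746. The CVST+Ligation mice enter both this comparison and the first, so opposite signs in the 2 are partly 1 observation.

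Iigp1 (chr18:60376027-60392634, plus strand), an immunity-related GTPase that breaks down parasite vacuoles, had the smallest p of the list. It lay at 0.785, 0.876 and 0.747 CPM in the CVST+Ligation mice and at 2.17, 2.02 and 2.36 CPM in the 4-PBA mice, and these groups were far apart. The reads were few, 53 summed over the CVST+Ligation libraries and 150 over the 4-PBA libraries. The narrow spread within each group therefore understates the counting error. The CVST mice stood lower than the 4-PBA mice and overlapped the ligated ones, at 1.1, 1.51 and 0.868 CPM. The log2 fold change was 1.44 (SE 0.36), a 2.71-fold difference. It stayed higher with an unadjusted p below 0.05 in all 15 alternative analyses, in which its Benjamini-Hochberg adjusted p by edgeR, DESeq2 or limma lay between 0.142 and 1.

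Ifi27 (chr12:103434211-103440239, plus strand) had 44.2, 47.3 and 37.7 CPM without and 56, 68.8 and 63.8 CPM with 4-PBA, and the groups did not overlap. Its log2 fold change was 0.55 (SE 0.17). Psmb9 lay at 0.868, 1.44 and 1.5 CPM against 1.84, 2.57 and 2.63 CPM, also without overlap, for 0.89 (SE 0.37). With 4-PBA it was thus within the range of the CVST mice or just below it. Ifi35 (chr11:101448407-101458698, plus strand), which binds the interferon-induced protein NMI, had 3.6, 4.64 and 3.6 against 4.23, 7.66 and 8.8 CPM, and 4-PBA replicate 1 fell inside the ligated range. Its log2 fold change was 0.81 (SE 0.30). When 1 library was left out, Psmb9 lost its call without CVST+Ligation replicate 1, 4-PBA replicate 2 or 4-PBA replicate 3, and Ifi35 in these fits and without CVST+Ligation replicate 3.

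In 7 of the 38 genes every 4-PBA mouse was above every CVST+Ligation mouse (all genes 3.51%), and in 0 below (all genes 4.22%). Beside Iigp1, Ifi27 and Psmb9 these were Ifih1, Usp18, Gbp3 and Ifi44. Usp18, which removes ISG15 from proteins and damps the type I receptor, had 1.74, 2.99 and 1.36 against 3.31, 3.24 and 3.85 CPM, a log2 fold change of 0.78 (SE 0.48). For Ifi44 the values were 0.661, 0.309 and 0.615 against 0.704, 1.47 and 1.26 CPM, with 1.10 (SE 0.53). Neither passed an unadjusted p of 0.05. Rtp4, a chaperone of receptor transport, gave 0.76 (SE 0.36), and its 4-PBA mice overlapped the ligated ones at 4.23, 5.81 and 9.3 against 2.81, 5.46 and 3.17 CPM.

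On the lower side with 4-PBA were 5 genes with small differences. Stat2 had a log2 fold change of -0.34 (SE 0.22), Cmpk2 of -0.24 (SE 0.23), Irf9 of -0.19 (SE 0.23), Dtx3l, the partner ligase of Parp9, of -0.10 (SE 0.41), and the nuclear body gene Sp100 of -0.01 (SE 0.31). For Stat2 the ligated mice had 25.5, 30.7 and 17.9 CPM and the 4-PBA mice 18.4, 19.8 and 20.1 CPM. The signs of Irf9, Dtx3l and Sp100 turned without CVST+Ligation replicate 2, and that of Dtx3l also without 4-PBA replicate 2. That of Sp100 turned in 7 of 15 alternatives, namely these 2 fits, the fit without 4-PBA replicate 1, total-count scaling, the replicate block and both limma runs on FPKM.

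The counts rested on single mice here too. Without CVST+Ligation replicate 2, 11 genes of the list were higher at p below 0.05 (Dhx58, Zbp1, Bst2, Oasl2, Iigp1, Psmb9, Rtp4, Xaf1, Ifi27, Ifi35 and Lgals3bp), 36 of 38 lay above 0 and the median was 0.64, while 1497 of 14950 genes tested passed that line in place of 476 (5.37% of all genes higher and 4.64% lower). Without 4-PBA replicate 3 the median was 0.15, 24 of 38 genes lay above 0, and Iigp1 and Ifi27 alone passed p below 0.05 (all genes 2.16% higher). By role, 5 of 9 antiviral effectors, 4 of 6 GTPases, 4 of 7 genes of the ISG15, ubiquitin and PARP group, 2 of 3 sensors and both immunoproteasome genes lay above 0 in that fit. Iigp1 and Ifi27 also passed alone without CVST+Ligation replicate 1 and without 4-PBA replicate 2, where 1.1% and 0.985% of all genes were higher. Without CVST+Ligation replicate 3 they passed with Psmb9, and Stat2 was lower (all genes 1.29% higher and 1.18% lower), and without 4-PBA replicate 1 there were 7 higher genes (all genes 2.3%), with Psmb8, Psmb9, Rtp4, Ifi35 and Ifi44 added. Summed leukocyte markers were 12.4 ± 4.55 CPM in the ligated and 16.8 ± 6.36 CPM in the 4-PBA mice (SD, n = 3), and microglial markers 981.2 ± 37.8 and 1013 ± 177 CPM, while hypothalamic markers separated the groups. All 8 choroid plexus markers lay higher with 4-PBA (median log2 fold change 2.08, 4 with p below 0.05), at sums of 100.9, 20.5 and 864 CPM against 3149, 675 and 449.8 CPM, and all 9 oligodendrocyte markers did (median 0.47, 2 with p below 0.05). All 7 markers of border-associated macrophages also lay higher, with a median of 0.37 near that of the list and 0 with p below 0.05. The same held for all 9 thalamic markers (median 1.39, 7 with p below 0.05) and all 8 striatal markers (0.97, 1 with p below 0.05), and for 5 of 6 ependymal (0.45) and 7 of 9 meningeal fibroblast markers (0.28). Markers of microglia, astrocytes and endothelium had medians of 0.05, 0.02 and 0.0087. The part of all these in the higher values was not tested.

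**Figure D5:**
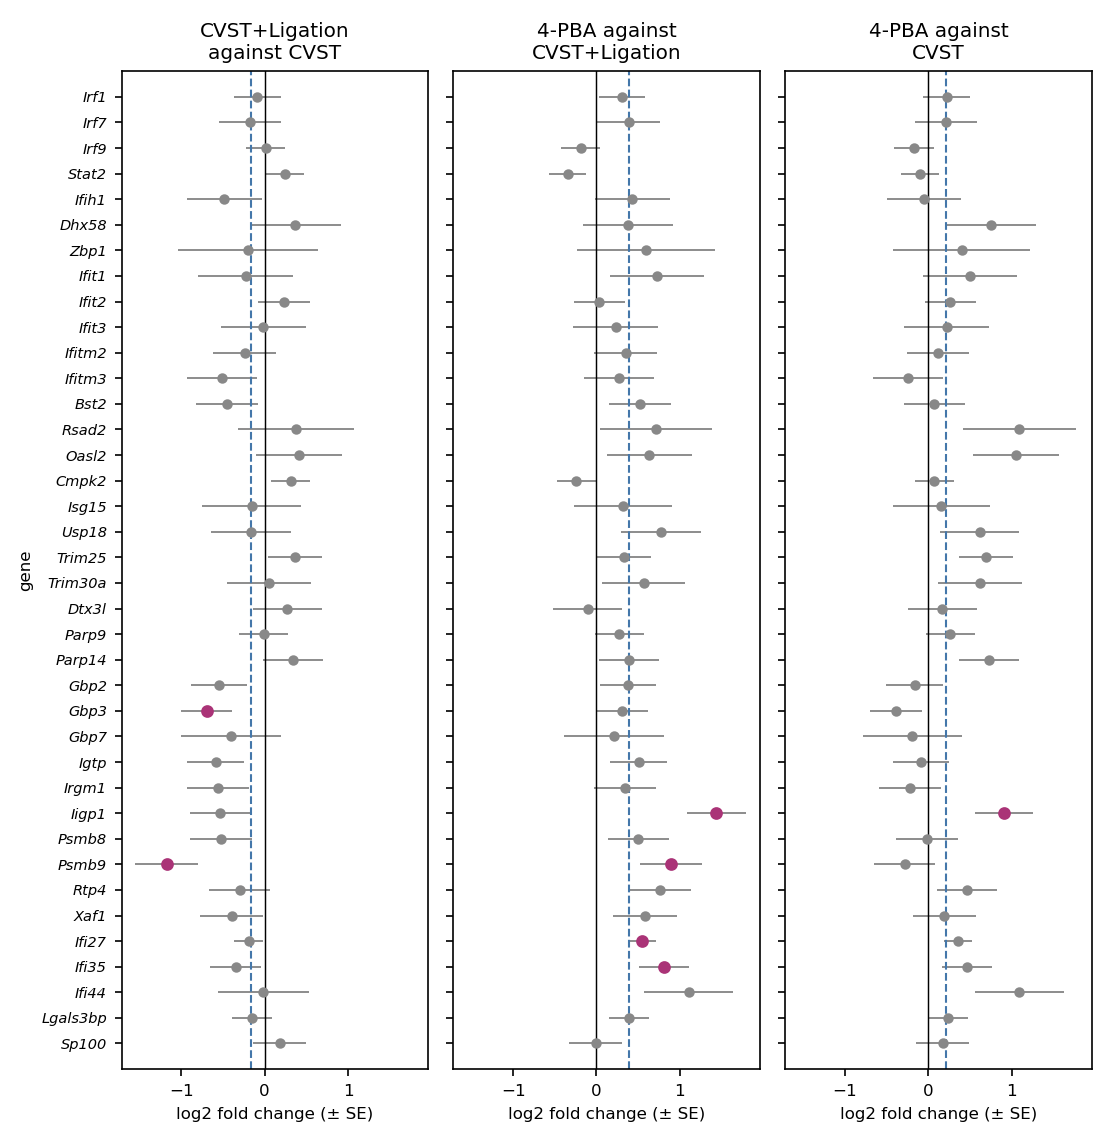
Log2 fold change, with a standard error worked back from the test statistic, for each of the 38 genes in 3 comparisons from edgeR (purple, unadjusted p below 0.05, grey, others, dashed line, median of the list, solid line, 0). The medians are -0.17, 0.39 and 0.22, and no gene passed after adjustment.

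The third comparison sets ligated mice treated with 4-PBA against mice with CVST alone, and shares its mice with the other comparisons. Of the 38 genes 27 were above the CVST level, with a median log2 fold change of 0.22 (all genes -0.01). All 7 genes of the ISG15, ubiquitin and PARP group (median 0.61) and all 7 other induced genes (0.35) lay above 0, whereas 5 of 6 GTPases (median -0.18) and both immunoproteasome genes (-0.15) lay below. Psmb8 turned above 0 when libraries were scaled by total counts and Igtp when limma was run on FPKM, and Ifih1 did so in both. Single mice also turned these counts. Without CVST replicate 2 all 6 GTPases lay above 0 and without 4-PBA replicate 1 5 of 6, while without 4-PBA replicate 3 only 4 of 7 genes of the ISG15, ubiquitin and PARP group did and without CVST replicate 3 5 of 7. At p below 0.05 with edgeR 1 gene was higher (all genes 8.07%) and 0 lower (all genes 7.33%), which is 2.63% of the list against 15.4% of all genes tested in either direction. With Benjamini-Hochberg adjustment of the edgeR test none passed (smallest adjusted p 0.254, for Iigp1; all genes passing 0.122%, 18 of 14746), and none of the list passed with DESeq2, which passed 855 of 14746 genes.

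Iigp1 was again that gene. Its log2 fold change was 0.91 (SE 0.35), and the lowest 4-PBA mouse (2.02 CPM) was above the highest CVST mouse (1.51 CPM). It lost the call in each fit without CVST replicate 1, CVST replicate 3, 4-PBA replicate 1 or 4-PBA replicate 3. The only other gene of the list without overlap was Trim25, at 3.31, 3.15 and 1.68 CPM against 4.01, 4.21 and 4.95 CPM (higher without overlap 2 of 38, all genes 12.3%; lower 0, all genes 11.5%). Its log2 fold change was 0.69 (SE 0.33). Oasl2 had 3.91, 8.25 and 3.25 CPM in the CVST mice and 5.58, 14.4 and 12 CPM with 4-PBA, for 1.05 (SE 0.52). Ifi27 gave 0.35 (SE 0.17), and Ifi44 1.09 (SE 0.53).

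On the lower side Gbp3 came first by p, with 7.37, 7.49 and 8.61 CPM in the 4-PBA mice and a log2 fold change of -0.39 (SE 0.31). Psmb9 gave -0.28 (SE 0.36), Irf9 -0.17 (SE 0.23), Irgm1 -0.22 (SE 0.37) and Ifitm3 -0.24 (SE 0.42). Ifitm3 varied widely, at 47.9, 68.2 and 48.5 CPM in the CVST mice, 26.3, 56.2 and 33.6 CPM after ligation and 20.9, 44.8 and 73.6 CPM with 4-PBA, where the lowest and highest mice of all were in the same group. Without CVST replicate 2, 6 genes were higher at p below 0.05 (Ifit1, Oasl2, Parp14, Iigp1, Ifi27 and Ifi44), in a fit that called 7.92% of all genes higher and 6.23% lower. Without CVST replicate 1, CVST replicate 3 or 4-PBA replicate 3 none was higher, where 6.5%, 7.66% and 8.32% of all genes were. In the last 2 of these fits 1 gene of the list was lower, Gbp3 and Irgm1 respectively, which is fewer than the 8.65% and 7.37% of all genes that were lower. Without 4-PBA replicate 1 the higher genes were Oasl2, Ifi27, Ifi35 and Ifi44 (all genes 5.94%). Between these groups 14 of 15 microglial markers lay lower with 4-PBA, 7 with p below 0.05, and 9 of 9 oligodendrocyte markers higher, also 7 with p below 0.05. All 8 choroid plexus markers (median 1.52, 3 with p below 0.05), all 9 meningeal fibroblast markers (1.03, 1 with p below 0.05), 6 of 7 markers of border-associated macrophages (0.78, 0 with p below 0.05) and 6 of 8 leukocyte markers (0.73, 0 higher and 1 lower with p below 0.05) lay higher too. All 9 thalamic markers were higher with p below 0.05, while 9 of 10 cortical and all 8 striatal markers lay lower, 7 and 2 of them with p below 0.05. Above 0 were also 10 of 12 endothelial markers (median 0.24, 0 with p below 0.05) and 6 of 9 astrocyte markers (0.24, 1 with p below 0.05). The same held for 6 of 8 markers of pericytes and vascular smooth muscle (0.30, 2 with p below 0.05). The part of all these lists in the result was not tested.

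The other parts of the pathway were read from the same fit. None of the 5 receptor genes tested and none of the receptor kinase genes passed p below 0.05 in any comparison. Ifngr2 had log2 fold changes of 0.11 (SE 0.15) for ligation, -0.16 (SE 0.15) for 4-PBA against ligation and -0.05 (SE 0.15) for 4-PBA against CVST. Jak1 gave -0.05 (SE 0.17), -0.15 (SE 0.17) and -0.20 (SE 0.17) in the same order.

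Among 13 inhibitors of interferon signalling, 0 passed p below 0.05 after ligation or with 4-PBA against ligation, and 1 was lower with 4-PBA against CVST, which is 7.69% against 7.33% of all genes tested. This was Irf2, a repressor of interferon-stimulated genes, at 35.9, 39.6 and 37 CPM in the CVST mice and 25.8, 29.4 and 30.8 CPM with 4-PBA, which did not overlap. Its log2 fold change was -0.39 (SE 0.14), with the call lost without CVST replicate 2 or 4-PBA replicate 1. The most abundant inhibitor by length, Ptpn11, a phosphatase, had a log2 fold change of 0.34 (SE 0.26) after ligation and of 0.0011 (SE 0.26) with 4-PBA against ligation.

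Of 19 sensors and adaptors upstream of interferon, Traf3 was higher after ligation, at 20.9, 14.9 and 12.8 against 34.6, 23.1 and 19.6 CPM with overlap, a log2 fold change of 0.67 (SE 0.27) that lost its call in 3 of 15 alternatives. This is 5.26% of them against 5.47% of all genes tested. None passed with 4-PBA against ligation, where Tbk1, the kinase of this branch with the highest level, gave -0.07 (SE 0.12). Against CVST 2 were higher with 4-PBA, which is 10.5% against 8.07% of all genes tested. Mavs, the mitochondrial adaptor of the RNA sensors, had 6.59, 6.61 and 5.21 against 9.64, 9.3 and 11.4 CPM (0.72, SE 0.25), and Tlr3, an endosomal sensor of double-stranded RNA, 10.4, 14.6 and 12.9 against 16.9, 17.2 and 16.6 CPM (0.42, SE 0.17). Neither overlapped between these groups, and the calls were lost in 2 of 15 alternatives for Mavs and 5 of 15 for Tlr3.

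Of 80 other interferon-stimulated genes tested, 40 lay above and 40 below 0 after ligation (median -0.01), with 1 higher and 3 lower at p below 0.05, which is 5% against 9.64% of all genes tested. Ifi203 was higher, 1.63 (SE 0.61). Epsti1 was lower in every CVST+Ligation mouse, at 1.91, 3.42 and 1.9 against 1.12, 1.08 and 0.967 CPM (-1.19, SE 0.36). Gbp5, a further guanylate-binding protein gene, was lower at 4.84, 6.47 and 3.47 against 2.77, 2.99 and 2.9 CPM (-0.77, SE 0.30), and so was Slfn2 (-1.15, SE 0.46). The calls were lost in 5 of 14 alternatives for Ifi203, 4 of 15 for Gbp5 and 5 of 15 for Slfn2, and in 0 of 15 for Epsti1. With 4-PBA against ligation 60 of the 80 lay above 0 (median 0.25), 2.5% passed p below 0.05 against 3.23% of all genes tested, and Epsti1, at 2.49, 2.02 and 1.91 CPM, and Oas1b were higher (log2 fold changes 1.01, SE 0.36 and 1.14, SE 0.49). Oas1b lost this call in 9 of 14 alternatives and Epsti1 in 2 of 15.

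With 4-PBA against CVST 57 of these 80 lay above 0 (median 0.15), 4 of them with p below 0.05, and 1 below 0 did so, which is 6.25% against 15.4% of all genes tested. Ifi203 gave 2.00 (SE 0.61), from 0.297, 0.31 and 0.434 CPM in the CVST mice to 1.3, 0.799 and 2.1 CPM. Cd274, the immune checkpoint ligand PD-L1, gave 0.86 (SE 0.35), at 1.74, 1.42 and 0.868 against 2.38, 2.4 and 2.59 CPM without overlap. Serping1, the complement C1 inhibitor, gave 1.36 (SE 0.54), and Pml, which builds nuclear bodies with Sp100, was lower (-0.61, SE 0.26), a call lost in 8 of 15 alternatives. Cd274 lost its call in 5 of 15 and Serping1 in 4 of 15, each time when 1 library was left out, and Ifi203 in 0 of 14. No gene of these pathway lists passed the Benjamini-Hochberg adjusted edgeR test in any comparison. Without CVST+Ligation replicate 2, 11 pathway genes outside the list were higher with 4-PBA against ligation in place of 2, in the fit that also called 5.37% of all genes higher in place of 1.81%.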

How the data were processed

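RNA from 9 mouse brains was sequenced in 3 groups of 3 mice, grouped by the sample titles. Per the labels and the paper's methods, the authors filtered reads with fastp, aligned them with HISAT2 to mm10 (GRCm38), used StringTie for transcript assembly and RSEM for quantification. Versions are not given in the sources used here. The authors deposited counts, whole reads per gene symbol without normalization, and a second table of expression values. The methods give TPM as the unit of abundance and do not describe this table. Its values are FPKM: in the table the authors deposited, each value equals the count divided by the library total and by 1 length per gene.

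Testing used edgeR 4.0.16 in R 4.3.3 (TMM scaling, filterByExpr, quasi-likelihood fit of all 9 libraries with the groups as the only term, common biological coefficient of variation 0.287, Benjamini-Hochberg over 14746 genes). Levels are TMM-scaled CPM, with the SD over mice, or FPKM where genes are compared with each other. Each SE of a log2 fold change was worked back from the edgeR test, as its absolute value divided by the square root of the F statistic. The p-values set each group difference against the spread between mice, estimated over all 9 libraries and moderated across genes. They cannot separate treatment from the piece of tissue taken. The procedure was tested on simulated data. Libraries of a group correlated across genes with r between 0.954 and 0.987, and none repeats another. Alternatives were DESeq2 size factors, total counts, DESeq2 1.42.0, all genes with at least 1 count, at least 10 counts in every library, only the groups compared, a replicate block, limma 3.58.1 on FPKM (log2 after adding 1 or 0.1), and leaving out single libraries. Promoters were read with pandas 2.3.3 in Python 3.11.15, and plots drawn with matplotlib 3.10.9.

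The members and all lists were chosen with earlier results of these data known. Named genes are those with p below 0.05, the 5 smallest p in each direction and comparison, the most abundant gene of each role and the 3 least abundant. In the pathway lists they are up to 3 with p below 0.05 per direction, or else the most abundant. Irf1, Irf7, Ifit1, Ifit2, Ifit3, Zbp1, Usp18, Ifih1, Bst2, Xaf1, Lgals3bp, Tap1, Ifnar1 and the marker genes were named after their values were seen, as examples of the pattern over mice, of genes without overlap, of calls that 1 library decides, or of shared loci. Of the pathway symbols listed, 165 of 170 were in the table, and 1 gene of these lists is not reported here.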

Additional observations from a re-analysis of the deposited data

How the results depend on the processing

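In none of the 15 alternatives per comparison did a gene of the list pass an adjusted p of 0.05, with edgeR, DESeq2 or limma. Of 53 named gene results, 43 kept 1 direction in every alternative. The filter of 10 counts in every library kept 34 of the 38 genes. At p below 0.05, 1 member was lower after ligation (in place of 2) with total counts, with only the 2 groups compared and with limma on log2(FPKM + 1) or log2(FPKM + 0.1), where 3.45%, 3.91%, 3.67% and 3.6% of all genes were lower in place of 4.18%. Pathway genes lower after ligation (3) became 5 with DESeq2 or all genes with at least 1 count and 6 with only the 2 groups compared. In these fits 4.96%, 3.62% and 3.91% of all genes were lower in place of 4.18%. Those higher (2) became 1 with the filter of 10 counts and with limma at offset 1 or 0.1, where 5.15%, 5.49% and 5.91% of all genes were higher in place of 5.47%. With 4-PBA against ligation, pathway genes higher (2) became 1 with DESeq2, the filter of 10 counts and only the 2 groups, and 5 with all genes with at least 1 count. In these fits 2.17%, 1.35%, 1.83% and 1.85% of all genes were higher in place of 1.81%. With 4-PBA against CVST, members higher (1) became 2 with total counts, 3 with DESeq2 and 4 with limma at either offset, while all genes higher rose from 8.07% to 10.1%, 9.39%, 10.1% and 10.4%. In the same comparison pathway genes lower (2) became 1 with total counts and with limma at offset 1 or 0.1, where 5.38%, 5.45% and 5.4% of all genes were lower in place of 7.33%.

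Leaving out 1 library moved members lower after ligation between 0 and 4, pathway genes higher between 1 and 3 and lower between 2 and 7. With 4-PBA against ligation, members higher ranged from 2 to 11 and lower from 0 to 1, and pathway genes higher from 1 to 11 and lower from 0 to 2. With 4-PBA against CVST these ranges were 0 to 6, 0 to 1, 1 to 10 and 0 to 9. Over all genes tested the same fits called 4.65% to 6.53% higher and 3.06% to 5.09% lower for ligation. For 4-PBA against ligation these shares were 0.985% to 5.37% and 0.731% to 4.64%, and against CVST 5.58% to 8.32% and 4.2% to 8.65%. The medians of the members ranged from -0.48 to 0.14, 0.15 to 0.64 and 0.02 to 0.49. The cause of these shifts was not tested.

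Replicate numbers were not treated as pairs in the main fit. Deviations of same-numbered mice correlated across genes at 0.07, 0.33 and 0.22 (ligation and CVST), 0.15, 0.05 and 0.13 (4-PBA and ligation) and 0.06, -0.06 and 0.01 (4-PBA and CVST). Every mouse correlated best with its own number in the pair of 4-PBA and ligation. In the pair of ligation and CVST every CVST+Ligation mouse did, but CVST replicate 1 was closest to CVST+Ligation replicate 3 (0.115, against 0.072 for its own number). Both are hints from the data and not from the design. With the replicate block, 1 member and 5 pathway genes were lower after ligation (all genes 4.83%), and 6 members were higher with 4-PBA against ligation (all genes 1.95%). Against CVST 4 members and 10 pathway genes were higher (all genes 9.8%) and 4 pathway genes lower (all genes 8.13%).

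Signs of uncalled log2 fold changes turned as follows. For ligation, Jak1 was 0.0037 with limma at offset 1 and 0.0039 at offset 0.1, and -0.22 to 0.12 with 1 library left out. Oasl2 ranged from -0.20 to 0.94 with 1 library left out. For 4-PBA against ligation, Sp100 was 0.012 with total counts, 0.072 with the replicate block, 0.055 and 0.091 with limma, and -0.23 to 0.39 with 1 library left out. Ptpn11 was -0.00063 with all genes with at least 1 count and -0.13 to 0.23 with 1 left out. Irf9 ranged from -0.38 to 0.0065 and Dtx3l from -0.33 to 0.098. For 4-PBA against CVST, Ifngr2 was 0.024 with total counts, 0.0114 and 0.0113 with limma, and -0.18 to 0.053 with 1 left out. Gbp3 ranged from -0.66 to 0.043, Irgm1 from -0.76 to 0.069 and Ifitm3 from -0.74 to 0.12.

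The count of genes highest in the mouse named was 34 for CVST replicate 2, 32 to 35 for CVST+Ligation replicate 2 and 30 for 4-PBA replicate 3 under total counts, DESeq2 size factors and FPKM, alternatives chosen after seeing the data. Depth limits the interferon ligands and, through counting error, Rsad2, Zbp1, Gbp7, Ifi44 and Iigp1.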
